A study of Mus musculus with 4 samples.

Results

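Genes of the acrosome, the sperm tail and spermatid chromatin were followed in RNA-sequencing libraries of mouse spermatocytes, 38 genes chosen by symbol from 24388 in the table. They comprise 5 genes of transition proteins and protamines, 14 of the acrosome, 5 testis-specific serine kinases and 14 of the sperm tail and neck. The libraries came from C57BL/6 mice, with 2 replicates of an Np95 knockout and 2 of the control, all carrying the age label 21 dpc, an abbreviation that the labels do not spell out. Np95, also called Uhrf1, brings the maintenance DNA methyltransferase to newly replicated DNA. The column headers call the knockout Np95cKO, and the sources used here do not give the driver of the deletion, its position in the gene or the number of animals per library. Testis tubules were digested and strained without a described sort, so other testis cells can be present, and p-values measure the spread between libraries, which may be technical.

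Spermatids are the haploid cells that follow meiosis. They build the acrosome, a vesicle of enzymes and binding proteins used at fertilization, grow a tail, and replace histones first by transition proteins and then by protamines. Some of these genes, such as the acrosin gene Acr, are transcribed in mouse already during meiosis and translated later, whereas protamine genes are switched on in round spermatids under the transcription factor Crem.

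The libraries differed in depth and in content. The smallest steps between low values corresponded to about 22230000 and 9630000 reads in knockout replicates 1 and 2, and to about 11645000 and 25625000 reads in control replicates 1 and 2. Uhrf1 had 1.87 and 1.48 RPKM (read number scaled to gene length and library size) in the knockout libraries, against 3.11 and 3.29 RPKM in the control libraries. Its log2 fold change was -0.65 (SE 0.10, limma adjusted p = 0.0031). The value covers the whole gene and does not measure the deleted part. Hspa2 and Sycp3, genes of spermatocytes, were present in each group, at means of 381.4 and 28.3 RPKM in the knockout and of 687 and 27.0 RPKM in the control.

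Of the 38 genes, 13 reached 1 RPKM in both control libraries, as did 29.9% of all symbols. All 13 entered the test, where 10 fell in the knockout and 0 rose, and each of the 13 had a log2 fold change below 0. Among all 9099 genes tested, 30.5% were lower and 43.3% were higher at a limma adjusted p under 0.05. The median log2 fold change, on the log2(RPKM + 1) scale, was -1.16 over these 13 genes and 0.14 over all genes tested. Gopc, Oaz3 and Tssk6 were the 3 genes tested and not called. Zpbp and Dpy19l2 passed the filter through the control libraries alone and therefore had to differ, and Tnp2 reached 1 RPKM in 1 of the 2 knockout libraries. In bulk suspensions of this kind, fewer cells of a type and less RNA per cell cannot be told apart.

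**Figure D1:**
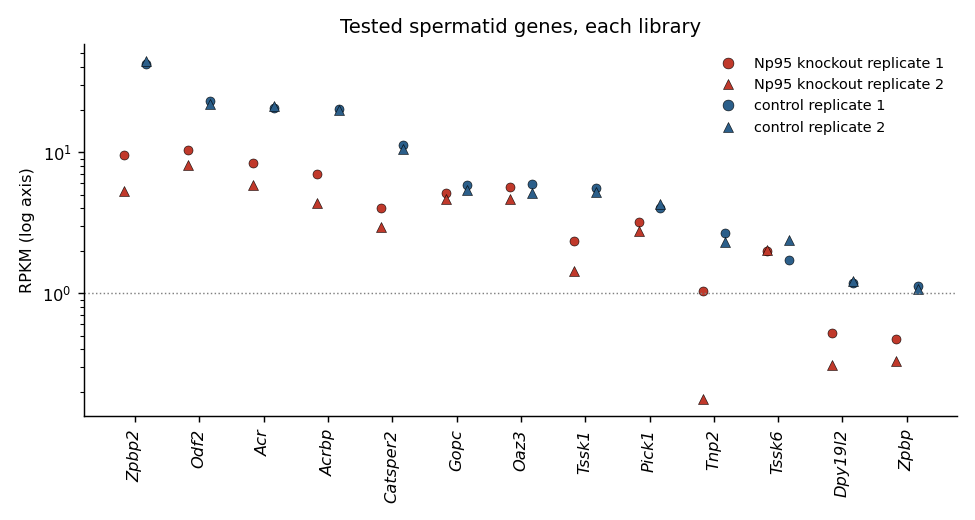
RPKM on a log axis of the 13 genes tested, with 1 point per library (red, Np95 knockout; blue, control; circles, replicate 1; triangles, replicate 2) and a dotted line at the filter of 1 RPKM. For 11 of the genes both knockout points lie below both control points, while those of Oaz3 and Tssk6 overlap.

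Of the 14 acrosome genes 7 were tested, of which 6 fell. Zpbp2, a zona pellucida binding protein of the acrosomal matrix, had 9.51 and 5.26 RPKM in the knockout libraries, against 42.3 and 44.3 RPKM in the control libraries. The mean was 5.87-fold lower (log2 fold change -2.45, SE 0.25, limma adjusted p = 0.0015), the lowest log2 fold change of the 13 and the 15th lowest of all 9099 genes. Acrbp, which binds the acrosin precursor, had 7.03 and 4.33 RPKM in the knockout libraries, against 20.3 and 19.9 RPKM in the control libraries. It was 3.54-fold lower (log2 fold change -1.69, SE 0.20, limma adjusted p = 0.0018). Acr itself, the gene of the acrosomal protease, had 8.30 and 5.81 RPKM in the knockout libraries, against 20.6 and 21.1 RPKM in the control libraries, 2.96-fold lower (log2 fold change -1.46, limma adjusted p = 0.0017). For each of these genes knockout replicate 2 was the lower of the knockout libraries, and the control libraries lay close together.

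Dpy19l2, an inner nuclear membrane protein that anchors the acrosome, and whose loss in mouse gives round-headed sperm, had 0.521 and 0.309 RPKM in the knockout libraries, against 1.18 and 1.21 RPKM in the control libraries. It was 2.88-fold lower (log2 fold change -0.64, SE 0.10, limma adjusted p = 0.0031). Zpbp, the paralog of Zpbp2, had 0.475 and 0.333 RPKM in the knockout libraries, against 1.11 and 1.07 RPKM in the control libraries, 2.70-fold lower (log2 fold change -0.58, limma adjusted p = 0.0026). Pick1 and Gopc code for PDZ-domain proteins of Golgi-derived vesicles that many tissues express. Pick1 had 3.19 and 2.75 RPKM in the knockout libraries, against 3.99 and 4.30 RPKM in the control libraries (log2 fold change -0.38, SE 0.09, limma adjusted p = 0.016). Its call ended without control replicate 1 (adjusted p = 0.058), without control replicate 2 (0.11), without the filter (0.052) and with an equal RPKM sum (0.61). Gopc had 5.10 and 4.65 RPKM in the knockout libraries, against 5.83 and 5.41 RPKM in the control libraries. The groups did not overlap, but the log2 fold change of -0.17 had a 95% interval of -0.40 to 0.05 (limma adjusted p = 0.13).

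Among tail genes, 3 of 14 were tested, of which Odf2 and Catsper2 fell. Odf2, a protein of the outer dense fibres that also sits on centrioles in somatic cells, had 10.3 and 8.10 RPKM in the knockout libraries, against 23.1 and 21.9 RPKM in the control libraries. The mean was 2.45-fold lower (log2 fold change -1.21, SE 0.13, limma adjusted p = 0.0016). Catsper2, a pore subunit of the sperm calcium channel, had 3.99 and 2.92 RPKM in the knockout libraries, against 11.3 and 10.6 RPKM in the control libraries, 3.16-fold lower (log2 fold change -1.43, SE 0.14, limma adjusted p = 0.0014). Oaz3, the testis antizyme that limits polyamine synthesis, had 5.61 and 4.68 RPKM in the knockout libraries, against 5.98 and 5.09 RPKM in the control libraries. Its groups overlapped (log2 fold change -0.09, 95% interval -0.40 to 0.22, limma adjusted p = 0.53). The gene Tdrkh overlaps 45.0% of the span of Oaz3 in RefSeq. The library kit does not mark strand, so reads in the shared part cannot be told apart. The same holds for overlaps of other genes, including ones that fell. Among them are 3.04% of the span of Catsper2 (Pdia3), 19.9% of Tssk3 (Fam229a) and 100% of Spaca4 (Fam83e) and Smcp (Gm35639).

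Of the kinase genes, Tssk1 fell and Tssk6 was not called. Tssk1, a kinase of elongating spermatids, had 2.33 and 1.44 RPKM in the knockout libraries, against 5.56 and 5.23 RPKM in the control libraries, 2.86-fold lower (log2 fold change -1.16, SE 0.16, limma adjusted p = 0.0025). Tssk6, needed in mouse sperm for fusion with the egg, had 1.99 and 2.02 RPKM in the knockout libraries, against 1.72 and 2.37 RPKM in the control libraries (log2 fold change -0.01, 95% interval -0.32 to 0.30, limma adjusted p = 0.94). Ndufa13, a broadly expressed gene of respiratory complex I, overlaps 28.1% of the span of Tssk6. Tssk1 and Tssk2 are related genes whose reads may be shared.

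Tnp2, a transition protein gene, was the only gene of the 5 in spermatid chromatin that entered the test. It had 1.03 and 0.176 RPKM in the knockout libraries, against 2.69 and 2.29 RPKM in the control libraries (log2 fold change -1.17, SE 0.26, limma adjusted p = 0.011). These values rest on an estimated 16.5 and 1.2 reads in the knockout libraries and 22.6 and 42.4 reads in the control libraries. The log2 fold change was -0.78 without knockout replicate 2, and the call ended without the filter (adjusted p = 0.092). The remaining 4 had few reads. Prm1, the protamine gene of all mammals, had 0.548 and 0.210 RPKM in the knockout libraries, against 0.467 and 0.490 RPKM in the control libraries, and the groups overlapped. That is an estimated 6.0 and 1.0 reads in the knockout libraries, against 2.7 and 6.2 reads in the control libraries. Prm2, Prm3 and Tnp1 had at most 6.8 estimated reads in any library. Prm2 was called lower when genes above 0.1 RPKM were tested (limma adjusted p = 0.038) but not without a filter (0.13), on 2 estimated reads in knockout replicate 1 and 0 in knockout replicate 2, against 2 and 4 reads in the control libraries.

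The deposited values moved in whole steps of the gene span, introns included, rather than of the exon length, so a long gene has a low RPKM even with many reads. Spata16, an acrosome gene linked to round-headed sperm in humans, lay below the filter, with 0.297 and 0.193 RPKM in the knockout libraries, against 0.857 and 0.835 RPKM in the control libraries. Its span of 345630 bases means that these values stand for an estimated 2281 and 641 reads in the knockout libraries, against 3449 and 7395 reads in the control libraries. Over the 38 genes, 22 stayed under 50 estimated reads in each library, with a highest value of 42.4 reads, while each of the other 16 had at least 75.6 reads in its best library. The genes under 50 reads include the protamines, Acrv1, Akap4, Odf1, Smcp, Izumo1 and Catsper1, Catsper3 and Catsper4. Cabs1, a calcium-binding protein of late spermatids, was listed at 0 in all 4 libraries, and Spem1, of cytoplasm removal in late spermatids, had 2 estimated reads in knockout replicate 2 and was listed at 0 elsewhere.

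**Figure D2:**
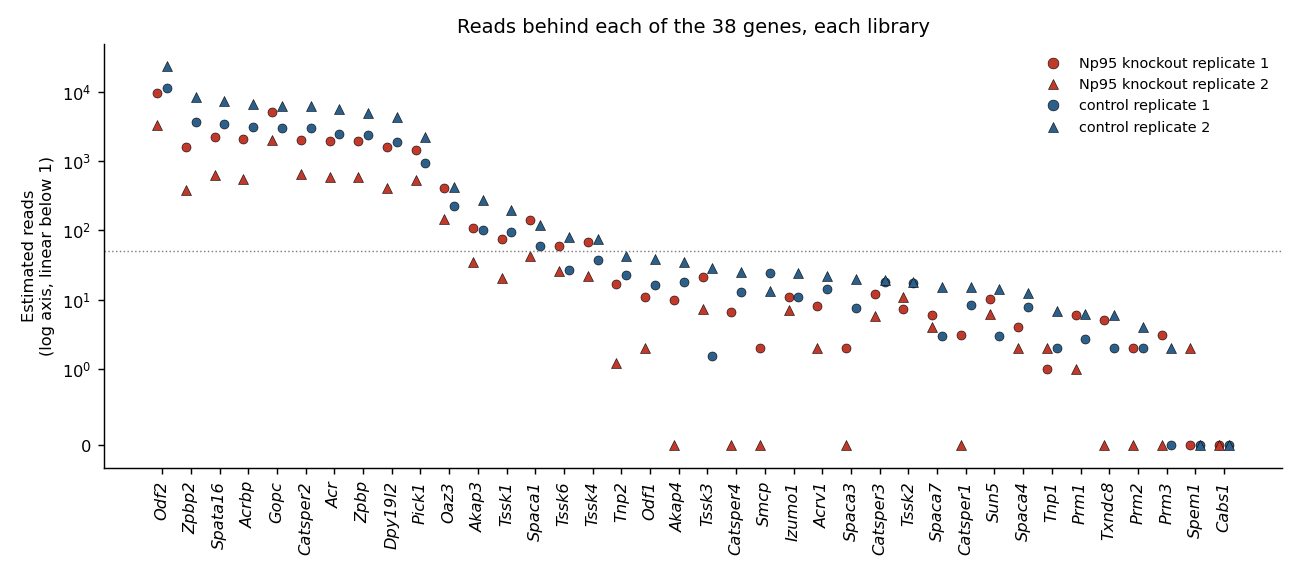
Estimated reads per library for each of the 38 genes, on an axis that is logarithmic above 1 and linear below it, with a dotted line at 50 reads. The 10 genes from Odf2 to Pick1 on the left have at least 383 reads in each library, and genes from Tnp2 rightward stay under 50 in each library; the libraries differ in depth, so heights within a gene are not scaled levels.

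Dividing by exon length instead of span, an alternative chosen after seeing the data, gave a level per length on which genes were set side by side, with intron reads, if any were counted, included. On this scale 11 genes were at 10 or more exonic RPKM, as this level is called here, in both control libraries. In order of their control mean, they began with Odf2, at 83.9 ± 14.2 in the knockout and 205.4 ± 7.73 in the control (SD, n = 2 each) and Zpbp2, at 43.9 and 24.3 in the knockout libraries, against 195.5 and 204.5 in the control libraries. The control levels of these leading genes differed by less than their spread. Acr had 49.4 ± 12.3 in the knockout and 145.9 ± 2.63 in the control, and Spata16 had 40.0 ± 12.1 in the knockout and 138.4 ± 2.53 in the control. Catsper2 had 35.3 ± 7.73 in the knockout and 111.8 ± 5.26 in the control, and Acrbp had 29.4 ± 9.86 in the knockout and 103.9 ± 1.38 in the control. Gopc, Dpy19l2, Zpbp, Pick1 and Oaz3 followed, with control means of 58.7, 48.4, 47.4, 37.4 and 14.9 on this scale. The protamine genes Prm1 and Prm2 had control means of 0.479 and 0.224.

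With these rescaled values 18 of the 38 genes passed the filter of 1, of which 13 fell and 0 rose, where 25% of 13726 genes were lower and 50.6% higher. The 13 include all 10 genes called on the deposited scale. Spata16, Odf1 and Akap3 were the genes added, of which Odf1 passed the filter through the control libraries alone and therefore had to be lower. Spata16 was 3.46-fold lower on average (rescaled log2 fold change -1.80, SE 0.19, limma adjusted p = 2.5e-04). Akap3, an anchoring protein of the fibrous sheath, had a log2 fold change of -0.80 (limma adjusted p = 0.0048). Its estimated reads were 108 and 35.0 in the knockout libraries, against 101.2 and 274 in the control libraries. Odf1, the main outer dense fibre protein, had a log2 fold change of -0.81 (limma adjusted p = 0.0035) from an estimated 11.0 and 2.0 reads in the knockout libraries, against 16.0 and 38.2 reads in the control libraries. Dpy19l2 and Zpbp, whose deposited values lie near the pseudocount of 1, had log2 fold changes of -1.52 and -1.40 on the exon scale. Spaca1, a membrane protein of acrosome formation, was not called, with 0.250 and 0.175 RPKM in the knockout libraries, against 0.201 and 0.183 RPKM in the control libraries (rescaled log2 fold change 0.10, 95% interval -0.34 to 0.54, limma adjusted p = 0.65). Tssk4 was not called either (rescaled log2 fold change -0.13, limma adjusted p = 0.49).

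**Figure D3:**
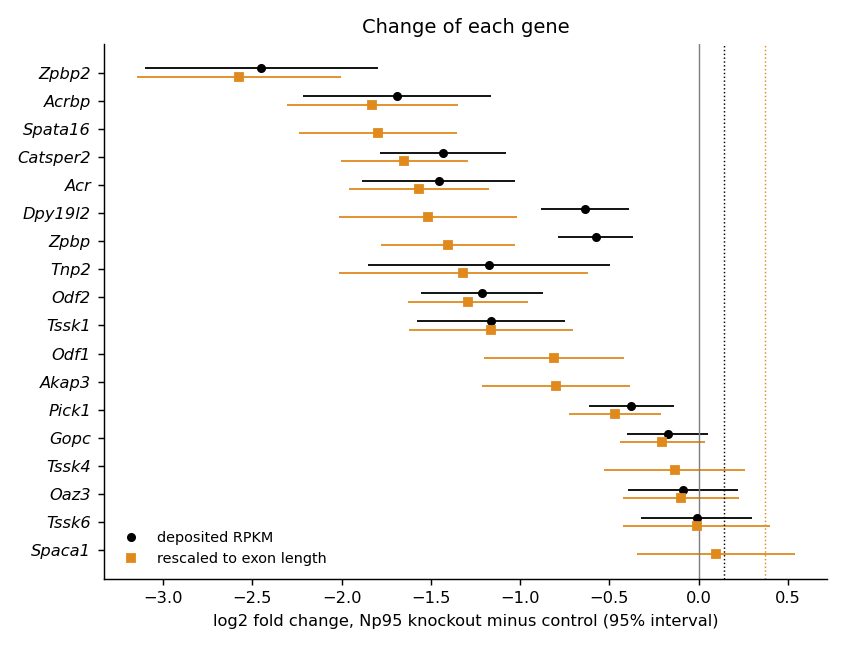
Log2 fold change, Np95 knockout minus control, of the 18 genes tested after rescaling to exon length (orange squares) and of the 13 tested as deposited (black circles), with 95% limma intervals and dotted lines at the medians of all genes tested, 0.14 as deposited and 0.37 rescaled. Zpbp2 lies lowest on each scale at -2.45 and -2.58, and Gopc, Oaz3, Tssk4, Tssk6 and Spaca1 have intervals that include 0.

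Without any filter, 17 of the 38 genes were lower and 0 higher, where 12.8% of 24388 symbols were lower and 27.8% were higher. These 17 include 8 of the 10 called with the filter and 9 that lay below it. Besides Spata16, Odf1 and Akap3, these 9 were Acrv1, Akap4, Catsper1, Catsper4, Spaca3 and Spaca4. The calls of these last 6 rest on few reads. Catsper1, the first pore subunit of the sperm calcium channel, had an estimated 3.1 reads in knockout replicate 1 and was listed at 0 in knockout replicate 2, against 8.2 and 15 reads in the control libraries. Akap4, the X-linked main protein of the fibrous sheath, had 10 estimated reads in knockout replicate 1 and was listed at 0 in knockout replicate 2, against 18.0 and 34.5 reads in the control libraries. Spaca3, a lysozyme-like protein of the acrosome, had 2.0 estimated reads in knockout replicate 1 and was listed at 0 in knockout replicate 2, against 7.6 and 19.7 reads in the control libraries. Acrv1, an acrosomal vesicle protein, had 8.0 and 2.0 estimated reads in the knockout libraries, against 14.0 and 22.0 reads in the control libraries. Knockout replicate 2, the shallowest library, was at 0 for 9 of the 38 genes, and knockout replicate 1 for 2. With a filter at 0.1 RPKM, 17 of 28 genes tested were lower and 0 higher, where 23.4% of 14887 genes were lower and 46.8% higher. Of these 17, Acrv1, Akap4 and Odf1 passed through the control libraries alone, which fixed their direction.

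Among the 9099 genes tested, 38% had both knockout libraries below both control libraries. Over all 38 genes, whatever their level, the knockout libraries lay below the control libraries without overlap for 24 and above for 0, where 21.9% of all symbols lay below and 46.1% above. The other 14 overlapped. Smcp, a protein of the mitochondrial sheath, had 0.0173 RPKM in knockout replicate 1 and was listed at 0 in knockout replicate 2. The control libraries had 0.401 and 0.0987 RPKM, values that differed widely. Tssk2 had 0.232 and 0.821 RPKM in the knockout libraries, against 1.07 and 0.498 RPKM in the control libraries, and Tssk3 had 0.345 and 0.274 RPKM in the knockout libraries, against 0.0486 and 0.407 RPKM in the control libraries. Spaca7, Sun5 and Txndc8 had at most 15 estimated reads in any library, and their groups overlapped. Izumo1, the sperm protein that binds the egg receptor, had 0.0909 and 0.134 RPKM in the knockout libraries, against 0.174 and 0.172 RPKM in the control libraries, and was not called without the filter (limma adjusted p = 0.10).

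The promoters of these genes were compared in CpG content, the substrate of maintenance methylation, using the 250 bases before the start in RefSeq (GRCm38.p6, while the authors aligned to mm9). Windows were matched for 34 of the 38 genes, and 5 of these have several, which were averaged. The windows below show genes with a high level in the control libraries (Zpbp2, Catsper2, Acrbp), a gene that fell and has a low control level (Tnp2) and a gene near 0 (Prm1), each read 5′ to 3′ on the gene's strand, with CpG pairs in capitals.
Zpbp2, chr11:98550847-98551096, plus strand: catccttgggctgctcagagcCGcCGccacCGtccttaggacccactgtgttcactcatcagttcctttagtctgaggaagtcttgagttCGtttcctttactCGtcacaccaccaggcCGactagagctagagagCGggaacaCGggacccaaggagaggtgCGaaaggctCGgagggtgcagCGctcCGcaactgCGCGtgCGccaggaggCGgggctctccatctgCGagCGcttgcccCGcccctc
Catsper2, chr2:121413793-121414042, minus strand: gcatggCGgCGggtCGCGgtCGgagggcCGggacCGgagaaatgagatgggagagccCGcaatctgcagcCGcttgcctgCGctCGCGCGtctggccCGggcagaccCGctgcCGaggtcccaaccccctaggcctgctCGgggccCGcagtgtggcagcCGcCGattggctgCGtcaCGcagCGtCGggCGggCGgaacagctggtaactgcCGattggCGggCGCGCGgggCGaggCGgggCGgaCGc
Acrbp, chr6:125049677-125049926, plus strand: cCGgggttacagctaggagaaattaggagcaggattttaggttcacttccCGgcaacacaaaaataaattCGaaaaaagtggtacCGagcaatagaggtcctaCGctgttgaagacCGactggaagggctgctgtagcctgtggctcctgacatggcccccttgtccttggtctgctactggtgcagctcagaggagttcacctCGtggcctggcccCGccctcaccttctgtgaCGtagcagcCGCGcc
Tnp2, chr16:10788656-10788905, minus strand: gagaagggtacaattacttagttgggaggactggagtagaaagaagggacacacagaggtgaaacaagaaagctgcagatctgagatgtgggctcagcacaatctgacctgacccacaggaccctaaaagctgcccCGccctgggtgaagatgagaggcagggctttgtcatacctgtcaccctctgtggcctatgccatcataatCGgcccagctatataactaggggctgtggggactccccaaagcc
Prm1, chr16:10796824-10797073, minus strand: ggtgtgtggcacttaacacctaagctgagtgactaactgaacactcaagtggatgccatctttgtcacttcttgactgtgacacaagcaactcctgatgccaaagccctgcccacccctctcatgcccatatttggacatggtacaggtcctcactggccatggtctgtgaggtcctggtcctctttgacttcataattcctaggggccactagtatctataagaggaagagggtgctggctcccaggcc
Zpbp2, Catsper2 and Acrbp hold 19, 35 and 11 CpG pairs in these windows, against 2 in Tnp2 and 0 in Prm1. The 9 genes with a window and 10 or more exonic RPKM in both control libraries had a median of 11.5 CpG pairs, with a range of 4 to 35. The 25 genes below that level had a median of 2 and a range of 0 to 13, and the median over 32851 windows of all genes was 6. The level that divides these genes was chosen after their values were seen, and no methylation was measured in these libraries. Among the other genes that fell, Odf2 has 28.5 pairs, Pick1 11.5, Dpy19l2 11, Zpbp 4 and Tssk1 2, and Acr has no window. Gopc and Tssk6, which were not called, have 22 and 13.

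**Figure D4:**
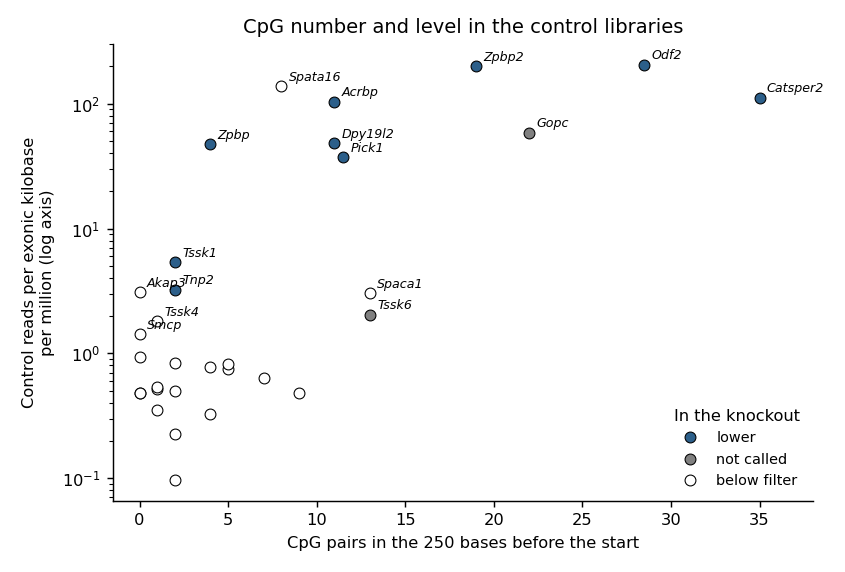
CpG pairs in the 250 bases before the start (mean over a gene's windows) against the control level in exonic RPKM (reads scaled to exon length and library size) on a log axis, for genes with a window and a control level above 0, coloured by their call on the deposited scale. Genes at 10 or more on the vertical axis run from 4 CpG pairs (Zpbp) to 35 (Catsper2), and genes under 1 have at most 9 (Tssk3).

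Crem and related factors bind the cyclic AMP response element. The letters TGACG, its core, were searched on either strand. They were in 12 of the 41 windows (29.3%) of the 34 genes with a window, and in 17.8% of the windows of all genes. The 12 windows belong to 9 genes, since overlapping windows of Odf2, Spaca1 and Spaca3 were counted separately. The 9 genes with these letters were Acrbp, Catsper2, Gopc, Izumo1, Odf2, Spaca1, Spaca3, Tssk6 and Zpbp2. They include genes that fell and genes that were not called. None of the windows of Prm1, Prm2, Prm3, Tnp1 and Tnp2 holds these letters. Variants of the element were not searched, so the protamine windows may hold a form that differs from TGACG. The core lies 147 bases before the start in Zpbp2, 77 in Catsper2 and 18 in Acrbp, counted to its first base, and its letters include a CpG pair. The full element TGACGTCA, which contains the core, was in the window of Izumo1 alone and in 1.55% of all windows. The letters GGCNGTT of MYB factors were in 6 windows, in Cabs1, Catsper2, Pick1, Spaca1 and Tssk4, and in 9.83% of all windows. The letters GTTGCCA of RFX factors were in 1 window, of Pick1, and in 3.66% of all windows. A match describes the letters and does not show binding.

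Other genes of the same structures, from lists that exclude the 38, were mostly lower among those tested. Of 28 other acrosome genes listed, 11 were tested, of which 11 fell and 0 rose, with a median log2 fold change of -1.28. Actl7a and Spaca9 are among the 11 and passed the filter through the control libraries alone, so their direction was fixed by it. After rescaling to exon length 13 were lower and 3 higher, and with a filter at 0.1 RPKM 13 were lower and 2 higher. Without a filter 11 were lower and 1 higher. Spaca6 and Calr3, below the filter of 1 RPKM, went the other way, as did Eqtn and Ccin, at no more than 0.116 RPKM in any library. Spaca6 had 0.429 and 0.838 RPKM in the knockout libraries, against 0.0847 and 0.159 RPKM in the control libraries. Calr3 had 0.406 and 0.526 RPKM in the knockout libraries, against 0.127 and 0.143 RPKM in the control libraries. Actl7b, an actin-related protein of spermatids, had 28.3 and 17.4 RPKM in the knockout libraries, against 101.7 and 110.5 RPKM in the control libraries, 4.65-fold lower. Actl7a, its relative in the perinuclear theca, had 0.0594 RPKM in knockout replicate 1 and was listed at 0 in knockout replicate 2, against 1.14 and 1.40 RPKM in the control libraries. Spesp1, of the equatorial segment, was 2.95-fold lower. Adjusted p was 0.0015 for Actl7b and 0.0017 for Spesp1.

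Of 27 other sperm tail genes, 16 were tested, of which 14 fell, 0 rose and 2 were not called, with a median of -1.17. Tekt3, Tekt5 and Slc9c1 passed through the control libraries alone and had to be lower. Tex40, a CatSper subunit gene also called Catsperz, was 5.88-fold lower, at 24.3 and 13.5 RPKM in the knockout libraries, against 108.9 and 112.9 RPKM in the control libraries. Tekt3 and Tekt4, tektins of the axoneme, were 3.79-fold and 4.34-fold lower. Of 12 other genes of spermatid chromatin, 9 were tested, of which 7 fell and 0 rose. Tsga8, Hist1h2aa and H2afb3 were 3.19-fold, 3.72-fold and 4.02-fold lower, of which Hist1h2aa and H2afb3 passed through the control libraries alone and had to be lower. The linker histone gene H1fnt was listed at 0 in all libraries. In this list 4 were lower and 1 higher after rescaling to exon length. Chd5, below the filter of 1 RPKM, had 0.334 and 0.433 RPKM in the knockout libraries, against 0.115 and 0.0978 RPKM in the control libraries. With an equal RPKM sum, 1 tail gene and 1 chromatin gene of these lists were higher.

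Regulators of the haploid programme were lower in 9 of 11 genes tested, with 1 higher and 1 not called (median -1.07). Papolb, a poly(A) polymerase of the testis, had 50.7 and 36.2 RPKM in the knockout libraries, against 138.1 and 147.8 RPKM in the control libraries, 3.29-fold lower. Spz1 and Gtf2a1l, a testis transcription factor and a testis form of a general transcription factor, were 7.37-fold and 3.39-fold lower, and Spz1 passed the filter through the control libraries alone, which fixed its direction. Mybl1, which rose, is a transcription factor of pachytene spermatocytes. It had 4.25 and 4.78 RPKM in the knockout libraries, against 3.24 and 3.41 RPKM in the control libraries, so a filter at 5 RPKM left it untested. No gene of the list was higher with an equal median or with quantile normalization. In contrast, 3 genes of the list were higher without a filter and 3 after rescaling to exon length.

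The same libraries differed in the genes of other cells and stages, and the part of these shifts in the values above was not tested. The lists share a few genes, and sums run over all genes listed. Among pachytene genes 14 of the 15 tested fell, with Pgk2, Pou5f2 and Nxt1 at 6.75-fold, 6.21-fold and 2.88-fold lower, and their summed RPKM was 749 and 590 in the knockout libraries, against 1586 and 1550 in the control libraries. Of 12 genes of meiotic entry, 9 rose and 1 fell. Tex15, Prdm9 and Dmc1 are among those that rose, and Prdm9, Dmc1 and Ccnb3 passed the filter through the knockout libraries alone and had to be higher. Of 5 spermatogonial genes tested, 4 rose, among them Sohlh1 and Dmrt1, and Id4 fell. Dmrt1 passed through the knockout libraries alone. The sums of this list did not rise, at 47.1 and 45.7 RPKM in the knockout libraries, against 47.6 and 52.1 RPKM in the control libraries. Id4 held a large part of these sums, at 24.6 and 21.6 RPKM in the knockout libraries, against 39.0 and 41.7 RPKM in the control libraries. Without a filter 11 of the 14 spermatogonial genes listed were higher and 1 was lower, where 27.8% of all symbols were higher. All 13 Sertoli cell genes tested rose, with sums of 405 and 508 RPKM in the knockout libraries, against 132 and 156 RPKM in the control libraries, and Aard and Clu were the most abundant over all libraries. Leydig cell genes rose in 6 of 7 cases, with sums of 64.8 and 55.7 RPKM in the knockout libraries, against 20.3 and 20.3 RPKM in the control libraries, and Insl3 and Star were the most abundant over all libraries. Macrophage genes rose in 5 of 5, with sums of 15.8 and 12.5 RPKM in the knockout libraries, against 4.86 and 6.21 RPKM in the control libraries, and C1qa and C1qc were the most abundant. Peritubular myoid genes rose in 2 of 2, with sums of 10.6 and 12.3 RPKM in the knockout libraries, against 4.88 and 4.88 RPKM in the control libraries, and Myl9 and Tagln were the most abundant. Genes of dissociation stress rose in 12 of 12, with sums of 88.6 and 130.7 RPKM in the knockout libraries, against 23.5 and 29.0 RPKM in the control libraries. Among these genes that rose, 3 Sertoli, 1 Leydig, 2 macrophage and 4 stress genes passed the filter through the knockout libraries alone, which fixed their direction. No marker of these 5 lists was at 0 in both libraries of either group. Among all 9099 genes tested, 43.3% were higher. With an equal median, 13 Sertoli, 4 Leydig, 4 macrophage, 1 myoid and 12 stress genes rose. Quantile normalization gave 11 stress genes and otherwise the same numbers.

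**Figure D5:**
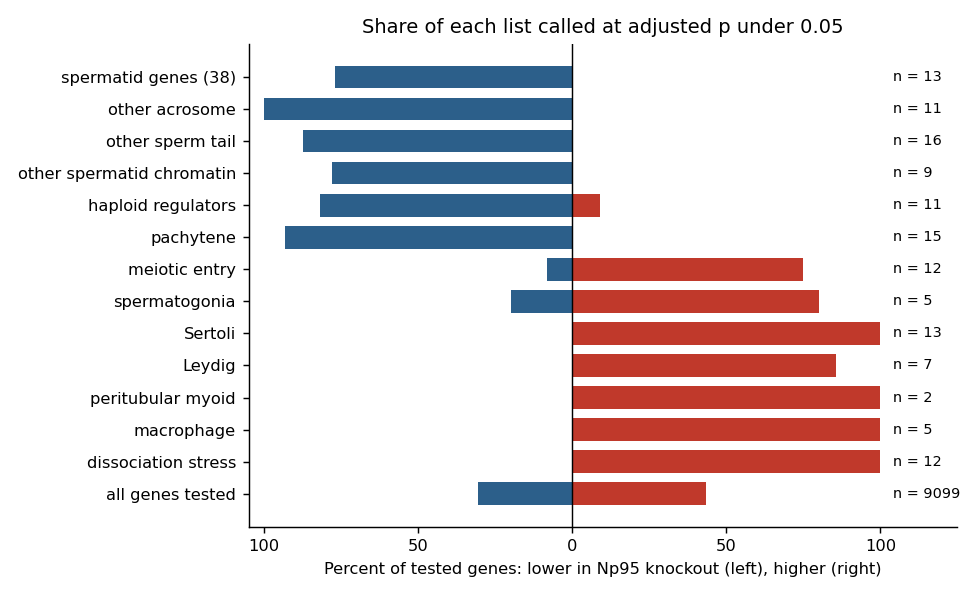
Percent of tested genes in each list that were lower (blue, left) or higher (red, right) in the Np95 knockout at a limma adjusted p under 0.05, with the number tested at the right and all 9099 genes at the bottom. The spermatid, acrosome, tail and pachytene rows extend to the left, and the Sertoli, Leydig, myoid, macrophage and stress rows to the right.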

How the data were processed

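Poly(A) RNA of 4 spermatocyte suspensions was prepared with an unstranded NEBNext kit and sequenced from both ends over 50 bases, per the labels' protocols. The authors deposited RPKM values, 1 column per library. The submitters' processing notes name Bowtie2 and mm9, while the sources used here do not name the counting program or gene models.

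From 24444 rows, 27 that carry a date as their name were dropped, and of repeated symbols the row with the highest mean was kept. Genes reaching 1 RPKM in 2 or more libraries were compared as log2(RPKM + 1), knockout minus control, by the two-sided test of limma 3.58.1 with a mean-variance trend, run in R 4.3.3. Adjustment was by Benjamini-Hochberg over 9099 genes, with a threshold of 0.05. Log2 fold changes understate low genes, and folds divide the group means of RPKM. An adjusted p in the text is from limma. The test was checked on simulated data with normal noise and few changed genes. Most genes tested here were called, so that check does not cover such a case.

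RPKM multiplied by gene span (RefSeq, GRCm38.p6) fell within 0.05 of a whole step for 47.4% to 58.0% of low values per library, against 10% by chance and 10.5% to 11.0% by exon length. Estimated reads are RPKM times span times the depth implied by these steps. A read pair can give 2 steps, so reads counted are not independent molecules. Whole reads were not recovered for all genes, so no count test was run. Exon lengths are from GENCODE M21, capped at the span, and span and exon length were found for 94.7% of symbols and for all 38 genes.

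All 38 genes are named, with Uhrf1, up to 3 called genes of smallest p per germ cell list and the 2 most abundant genes of each other cell type; any further name was picked with its values in view. The members and lists were chosen with earlier results of these data known. Alternatives were other filters, pseudocounts, scalings and variance models, a replicate block, summing repeated symbols, exon-length rescaling (chosen after seeing the data) and leaving out each library. Leaving out a library leaves 1 sample in a group, which is assumed to vary like the other group.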

Additional observations from a re-analysis of the deposited data

How the results depend on the processing

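The count of genes lower among the 38 was 10 as tested, 17 without a filter or with a filter at 0.1 RPKM, and 6 at 5 RPKM, where fewer genes are tested. It was 9 to 10 with 1 library left out and 8 with an equal RPKM sum, and 0 of the 38 were higher under each of the 16 alternatives. Over all genes, 3120 were lower and 6790 higher without a filter, 3487 and 6969 at 0.1 RPKM, 1629 and 1080 at 5 RPKM, 1663 and 5657 with an equal RPKM sum and 3431 and 6939 after rescaling to exon length. The split of all calls depended on scaling, with 58.7% higher as deposited, 77.3% with an equal RPKM sum, 46.3% with an equal median and 50.9% with quantile normalization, and medians of 0.14, 0.46, -0.05 and 0.01. The cause was not tested. Of the 202 values for single genes under alternatives, 190 kept their direction and side of the threshold.

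Genes not called changed sign, namely Gopc (0.18), Tssk6 (0.27) and Oaz3 (0.26) with an equal RPKM sum, and, with 1 library left out, Oaz3 (-0.20 to 0.0206, above 0 without knockout replicate 2 or control replicate 1) and Tssk6 (-0.17 to 0.14, above 0 without control replicate 2). Gopc was called lower with an equal median (-0.37). With a pseudocount of 0.1 the log2 fold changes of Tnp2, Dpy19l2 and Zpbp were -2.21, -1.36 and -1.26. With an equal RPKM sum Zpbp lay below the filter. With the replicate number as a block 10 of the 38 were lower and 0 higher, as without it. Nothing in the labels says that the numbers pair libraries, whose same-numbered deviations had r = 0.11 across genes. The 22 genes under 50 estimated reads are limited by depth.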
